A study of Mus musculus with 4 samples.

Results

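The nuclear genes for the subunits of the mitochondrial respiratory chain and of ATP synthase were examined, complex by complex, in mouse leukaemia cells after treatment with CS1. Members were chosen by gene name: Ndufa, Ndufb, Ndufc, Ndufs or Ndufv followed by a number, Ndufab1, the Sdh genes, names that begin with Uqcr, Cox4 to Cox8 with a suffix, and names that begin with Atp5, without pseudogenes. The rule found 84 of the 24497 features in the table, of which 37 belong to complex I, 4 to complex II, 8 to complex III, 18 to complex IV and 17 to complex V. Levels are in TPM, a length-normalized share of a library's transcripts. A level of 1 TPM or more in 2 or more libraries was reached by 80 members, and these were tested.

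The respiratory chain passes electrons from NADH (complex I) or succinate (complex II) through ubiquinone, complex III and cytochrome c to oxygen at complex IV, and complexes I, III and IV pump protons that drive ATP synthase (complex V). Most subunits are encoded in the nucleus, and a small set in mitochondrial DNA. Leukaemia-initiating cells of acute myeloid leukaemia are known to rely on oxidative phosphorylation.

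RNA came from mouse spleens with acute myeloid leukaemia of the MLL-AF9 type, which a fusion gene drives. Bone marrow cells of primary leukaemic mice, marked by CD45.2, had been transplanted into secondary recipients irradiated with 320 rads. The CS1 group (2 libraries) received CS1, which the labels call an FTO inhibitor (FTO removes methyl groups from RNA), intraperitoneally at 5 mg/kg on alternate days over 20 days, and the PBS group (2 libraries) received PBS on the same schedule. Spleen cells of both groups were depleted of red cells by lysis and enriched for CD45.2 with beads, and poly(A) RNA was selected. Whether the libraries of a group are separate animals is not said, and the p-values therefore cover the spread among these libraries alone, which may be technical. For CS1 replicate 2 the title and description name CS1 but the treatment entry names CS2, and it was kept as CS1.

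Library totals were 977973 and 978426 TPM with CS1 and 986084 and 986345 TPM with PBS (read depth unknown). All 10 myeloid leukaemia markers examined were detected, 7 of them higher and 3 lower with CS1. Lyz2 (lysozyme, of mature myeloid cells) stood at 6193 and 6222 TPM with CS1, against 13128 and 13256 TPM with PBS. Elane (neutrophil elastase, of promyelocytes) stood at 2490.1 and 2533 TPM with CS1, against 424 and 427 TPM with PBS. Summed over their lists, B cell markers had 34.8 and 32.2 TPM with CS1 against 55.8 and 54.4 TPM with PBS, and T cell markers 7.04 and 6.86 TPM with CS1 against 11.8 and 11.0 TPM with PBS. Erythroid markers summed to 43.0 and 36.7 TPM with CS1 and to 19.1 and 19.6 TPM with PBS, megakaryocyte markers to 6.57 and 4.12 TPM with CS1 and to 2.17 and 1.44 TPM with PBS, and 5 of 6 stromal and endothelial markers stayed under 1 TPM in every library. Of 3 tested erythroid markers only Hbb-bs was called higher, at 13.5 and 12.2 TPM with CS1 and 0.01 TPM in both PBS libraries. Of 2 tested megakaryocyte markers 1 was called higher. The part of these marker differences in the results that follow was not tested.

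Respiratory chain transcripts took a larger share of the RNA with CS1. Summed over the 84 members they made up 16649 and 16727 TPM with CS1, against 14918 and 14758 TPM with PBS, or 1.702% and 1.710% of the library total with CS1 and 1.513% and 1.496% with PBS. The groups did not overlap, and the mean sum was 12.5% higher with CS1 (16688 ± 55.5 TPM with CS1 and 14838 ± 114 TPM with PBS, SD, n = 2 each). The log2 ratio of the mean sums was 0.17, 0.29 with quantile normalization and 0.13 after rescaling the libraries by a trimmed mean of log ratios. Because these are bulk samples, more cells of a type that carries these transcripts and more of them per cell cannot be told apart.

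Gene by gene, 50 of the 80 tested members rose with CS1 (62.5%), 3 fell (3.75%) and 27 did not pass the test. This was read against 35.3% of all 11866 tested features called higher and 31.6% called lower, by limma with Benjamini-Hochberg adjustment over all of them, calling adjusted p-values under 0.05. The share of members called in either direction, 66.2%, was close to the 67.0% of all features, and the members differed from the background in direction rather than in how often they were called. Their median log2 fold change was 0.19, with 66 of 80 values above 0, against a median of 0.04 over all tested features; with quantile normalization the members' median was 0.29. Both CS1 libraries lay above both PBS libraries for 59 members (45.1% of all tested features did so) and below them for 6 (39.3% of all), and 15 members overlapped. Within a group the libraries lay close together: the median absolute log2 difference between the 2 libraries over the members was 0.0361 with CS1 and 0.0489 with PBS. Without CS1 replicate 2, the library with the divergent label, 51 members were called higher and 2 lower.

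**Figure D1:**
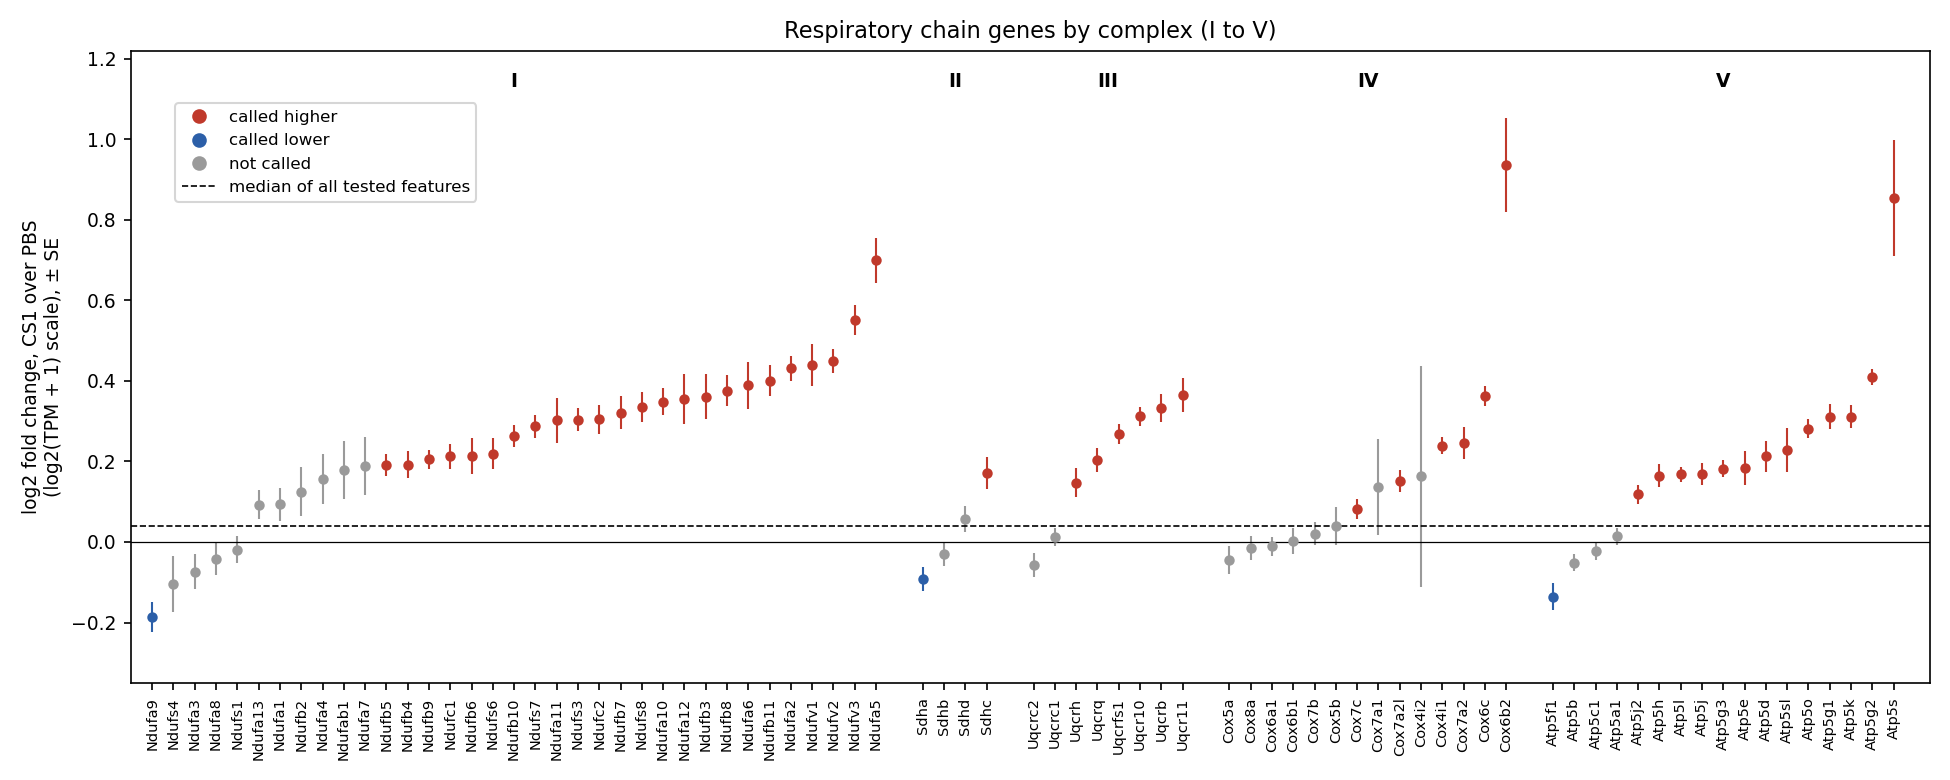
Log2 fold change of CS1 over PBS (y axis, log2(TPM + 1) scale, ± SE) for the tested members, ordered by value within each complex. Red points were called higher, blue points lower and grey points neither, and the dashed line marks the median of all tested features, 0.04. Ndufs5, whose SE was 1.07, and 1 other complex I member are left out. Most members of complexes I, III and V lie above the line, and those of complexes II and IV scatter around it or above it.

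The complexes moved by different amounts. Complex I summed to 5152 and 5222 TPM with CS1 and to 4390.2 and 4327 TPM with PBS, 19.0% higher with CS1. Complex III summed to 1686.5 and 1717 TPM with CS1 and to 1489 and 1459 TPM with PBS, 15.5% higher. Complex V summed to 5305 and 5246 TPM with CS1 and to 4789 and 4782 TPM with PBS, 10.2% higher. In these complexes, as in complexes IV and II, the gap between the groups was several times the gap within a group. Complex IV summed to 3949 and 3988 TPM with CS1 and to 3703 and 3644 TPM with PBS, 8.03% higher. Complex II summed to 557 and 555 TPM with CS1 and to 547 and 546 TPM with PBS, 1.66% higher. Set over the complex II sum of the same library, which does not depend on the library total, complex I stood at 9.25 and 9.41 with CS1 against 8.02 and 7.92 with PBS. The same ratio was 3.03 and 3.09 with CS1 against 2.72 and 2.67 with PBS for complex III, 7.09 and 7.19 with CS1 against 6.77 and 6.67 with PBS for complex IV, and 9.53 and 9.45 with CS1 against 8.75 and 8.76 with PBS for complex V. Each ratio was higher in both CS1 libraries than in both PBS libraries. Whether the complexes differ from each other in their change was not tested. The log2 ratio of the sums, CS1 over PBS, moved with the normalization. With quantile normalization it was 0.35 in place of 0.25 for complex I and 0.33 in place of 0.21 for complex III. For complex IV it was 0.24 in place of 0.11 and for complex V 0.27 in place of 0.14. For complex II it was 0.14 in place of 0.024. After rescaling the libraries by a trimmed mean of log ratios it was 0.21, 0.17 and 0.10 for complexes I, III and V. It was then 0.072 for complex IV and -0.015 for complex II.

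**Figure D2:**
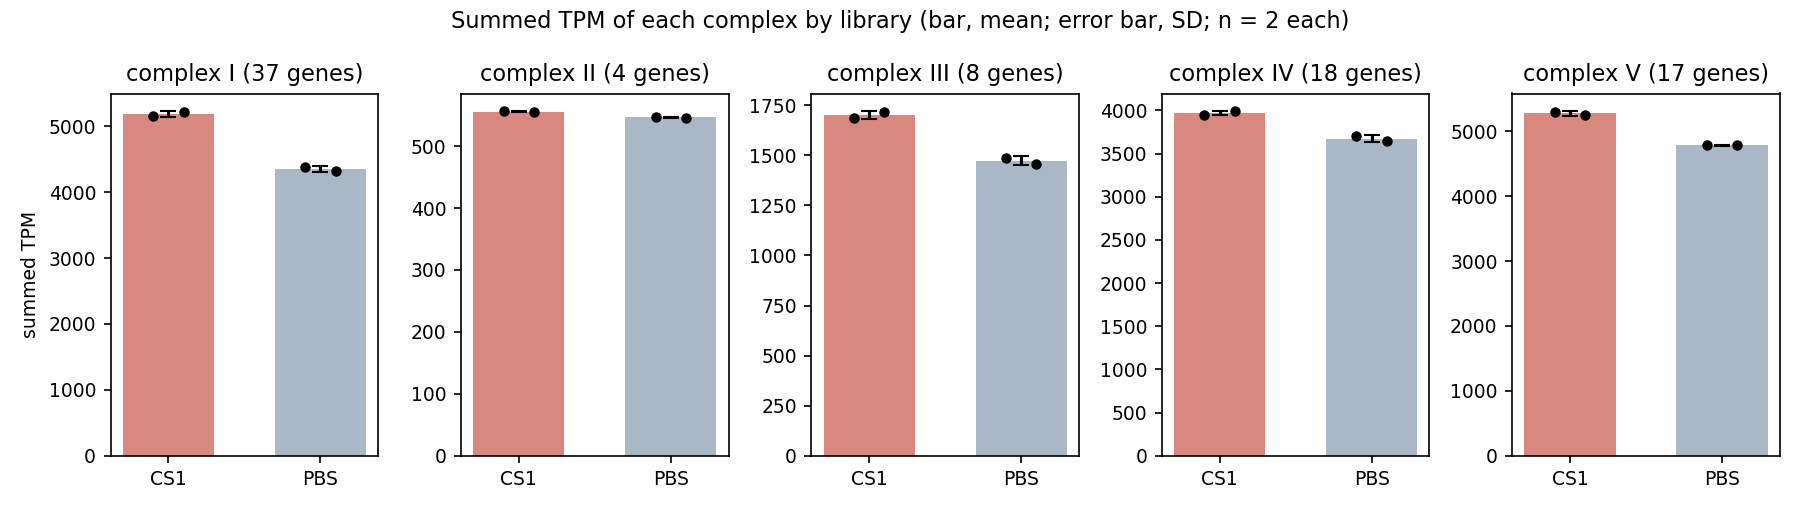
Summed TPM of the genes of each complex (y axis, from 0) in the CS1 and PBS libraries. Bars are means, error bars SD and points the 2 libraries of each group. The CS1 bar is higher in each complex, by 19.0% in complex I and by 1.66% in complex II.

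Many respiratory chain promoters carry sites for a few factors, among them NRF1 (nuclear respiratory factor 1), ETS factors such as GABP, and YY1. Promoters from RefSeq on GRCm38.p6 (250 bases before to 50 after each gene's start) matched 70 of the 84 members. On either strand, CGCANGCG (the NRF1 core) was found in 26 members (37.1%), against 9.22% of 27025 genes with a promoter and 20.0% of the 9047 of these that were tested. CCGGAAG (the ETS site) was found in 16 members (22.9%), against 9.93% of all genes and 21.2% of tested genes. AAGATGGCG (the YY1 core) was found in 8 members (11.4%), against 1.64% of all genes and 3.84% of tested genes. A promoter was counted once per motif, and a CCGGAAG and an AAGATGGCG match can share the letters AAG. Of the tested members, 18 of 26 with the NRF1 core were called higher, and 25 of 42 without it. For the ETS site these counts were 11 of 16 with it and 32 of 52 without it, and for the YY1 core 6 of 8 with it and 37 of 60 without it. The stretches around the matches are shown for members with different calls, with the matches in capitals, read 5′ to 3′ on the gene's strand. Ndufa5, Atp5g2 and Atp5j rose, Sdhd was not called and Sdha fell. Exons of Atp5j overlap those of Gabpa by 397 bases, and 10.7% of its 50-base stretches are shared with other annotated transcripts.
Ndufa5, chr6:24527696-24527727, minus strand, NRF1 core: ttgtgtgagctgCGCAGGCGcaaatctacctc
Atp5g2, chr15:102671069-102671100, minus strand, NRF1 core: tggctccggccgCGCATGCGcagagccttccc
Atp5j, chr16:84835019-84835135, minus strand, NRF1 core, YY1 core and ETS site: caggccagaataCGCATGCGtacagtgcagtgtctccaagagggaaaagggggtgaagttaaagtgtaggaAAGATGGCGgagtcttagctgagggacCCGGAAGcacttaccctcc
Sdhd, chr9:50603877-50603939, minus strand, NRF1 core and ETS site on the other strand: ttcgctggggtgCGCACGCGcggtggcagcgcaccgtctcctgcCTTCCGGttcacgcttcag
Sdha, chr13:74350241-74350349, minus strand, 3 NRF1 cores: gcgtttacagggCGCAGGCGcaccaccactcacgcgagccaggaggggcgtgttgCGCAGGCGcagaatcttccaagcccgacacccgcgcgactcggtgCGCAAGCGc

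Complex I, the NADH dehydrogenase, had 24 of 37 members higher, 1 lower and 12 not called, with a median log2 fold change of 0.22. The shares were 64.9% higher and 2.70% lower, against 35.3% and 31.6% of all tested features. Its 7 core subunits, which carry the flavin and the iron-sulfur clusters or form the quinone site, had 5 higher and none lower (limma, also at an unadjusted p under 0.05; median 0.30). The 30 accessory subunits by name, Ndufa4 among them, had 19 higher and 1 lower, with a median of 0.21. By name series, 3 of 3 Ndufv, 2 of 2 Ndufc, 9 of 10 Ndufb, 4 of 8 Ndufs and 6 of 13 Ndufa genes were called higher. The Ndufb genes, most of them in the membrane arm, ranged from 0.12 to 0.40, all above 0.

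The Ndufv genes sit at the tip of the matrix arm, where NADH is oxidized, and summed to 426 and 435 TPM with CS1 against 305 and 306 TPM with PBS. Ndufv2 (chr17:66078795-66101559), an iron-sulfur core subunit, had 123 and 122 TPM with CS1, against 88.3 and 91.1 TPM with PBS. The groups were well apart, and the log2 fold change was 0.45 ± 0.03 (SE throughout; limma adjusted p = 6.77e-05). Ndufv3, an accessory subunit beside it, had 191 and 202 TPM with CS1, against 131 and 137 TPM with PBS (log2 fold change 0.55 ± 0.04, adjusted p = 8.22e-05). Ndufv1, the subunit that binds flavin mononucleotide and NADH, had 111 and 111 TPM with CS1, against 86.3 and 77.4 TPM with PBS (0.44 ± 0.05, adjusted p = 0.000753). All 3 were higher in both CS1 libraries, and no 50-base stretch of their transcripts is shared with another annotated gene.

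Ndufa2, an accessory subunit of the NADH-oxidizing module, had 146 and 148 TPM with CS1, against 111 and 106 TPM with PBS (log2 fold change 0.43 ± 0.03, adjusted p = 9.56e-05). Its exons overlap those of Tmco6 by 66 bases, and it is not known here whether reads were counted by strand. Ndufa5 (chr6:24518662-24527690), an accessory subunit of the quinone module whose NRF1 match is shown above, had the largest log2 fold change of complex I and is named outside the rule for that reason. It had 76.4 and 80.8 TPM with CS1, against 45.7 and 50.3 TPM with PBS, a difference of 0.70 ± 0.06 (adjusted p = 0.000153). Ndufa4, the most abundant complex I gene by name, is now regarded as a complex IV subunit but is counted with complex I here. It had 289 and 300.3 TPM with CS1, against 282 and 247 TPM with PBS. Its libraries did not overlap, but it did not pass the test (0.16 ± 0.06, 95% interval 0.0017 to 0.31, adjusted p = 0.0689), and without PBS replicate 1 it did (0.25, adjusted p = 0.00658).

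Ndufa9, an accessory subunit at the junction of the matrix and membrane arms, was the complex I member called lower. It had 78.6 and 82.9 TPM with CS1, against 92.9 and 91.0 TPM with PBS (log2 fold change -0.19 ± 0.04, adjusted p = 0.00553). Its groups did not overlap, in the opposite direction to 30 other members of the complex. Of all tested features, 45.1% had both CS1 libraries above both PBS libraries and 39.3% had them below. Among the core subunits, Ndufs3, Ndufs7 and Ndufs8, which lie in the matrix arm towards the quinone site, rose by 0.30, 0.29 and 0.34 on the log2 scale. Ndufs1, the largest iron-sulfur subunit, was not called, with 62.6 and 61.2 TPM with CS1 against 63.1 and 62.4 TPM with PBS (-0.02, 95% interval -0.10 to 0.062). Ndufs5 was listed at 0.01 and 5.03 TPM with CS1 and at 4.79 and 0.01 TPM with PBS, so each group held a library at the lowest listed value of 0.01. Of its 50-base stretches 21.7% also occur in BC002163, an intronless copy in the annotation. BC002163 had 119 and 127 TPM with CS1 against 100.5 and 108 TPM with PBS. The value of Ndufs5 is uncertain, and the part of the shared stretches in it was not tested.

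Complex II, succinate dehydrogenase, which is also an enzyme of the citric acid cycle and has no mitochondrially encoded subunit, had 1 of 4 members higher and 1 lower, with a median log2 fold change of 0.01. Among all tested features 35.3% were called higher and 31.6% lower. Sdhc, a membrane anchor, had 141 and 134 TPM with CS1, against 126 and 118 TPM with PBS (0.17 ± 0.04, adjusted p = 0.0113). Sdha (chr13:74322255-74350240), the flavoprotein that oxidizes succinate, had 130.2 and 134 TPM with CS1, against 143 and 139 TPM with PBS (-0.09 ± 0.03, adjusted p = 0.0360). Neither gene's groups overlapped, and they moved in opposite directions.
Sdhd, the other anchor, had 139.6 and 136 TPM with CS1, against 129.8 and 135 TPM with PBS (0.06, 95% interval -0.021 to 0.14, adjusted p = 0.155), and it was called higher under quantile normalization (0.18, adjusted p = 0.00463). Sdhb, the iron-sulfur subunit, had 146 and 150.5 TPM with CS1, against 149 and 154 TPM with PBS (-0.03, 95% interval -0.10 to 0.044, adjusted p = 0.410). The call of Sdha was lost on leaving out any single library (adjusted p between 0.0561 and 0.164), without the filter on low values, without the variance trend, under quantile normalization and with the replicate number as a block. The call of Sdhc was lost without the variance trend (adjusted p = 0.0531) and on leaving out CS1 replicate 1 (adjusted p = 0.0764) or PBS replicate 2 (adjusted p = 0.0616), and the median of the complex was just below 0 without PBS replicate 1 (-0.012) and after the trimmed-mean rescaling (-0.025).

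Complex III, the cytochrome bc1 complex, had 6 of 8 members higher and none lower (limma). Over all tested features the shares were 35.3% higher and 31.6% lower. No member of the complex was lower at an unadjusted p under 0.05 either, though Uqcrc2 was called lower after the same rescaling. The median log2 fold change of the complex was 0.24. Uqcr10, a small membrane subunit, had 227 and 228 TPM with CS1, against 186 and 181 TPM with PBS (0.31 ± 0.02, adjusted p = 0.000131). Uqcrfs1, the Rieske iron-sulfur protein that hands electrons to cytochrome c1, had 160.0 and 159 TPM with CS1, against 133 and 131 TPM with PBS (0.27 ± 0.02, adjusted p = 0.000258). Uqcrb, a small subunit linked to ubiquinone binding, had 269 and 286 TPM with CS1, against 218 and 222 TPM with PBS (0.33 ± 0.04, adjusted p = 0.00047). All 3 were higher in both CS1 libraries, although 43.4% of the 50-base stretches of Uqcrb are shared with other annotated transcripts. Uqcrh, the hinge protein and the most abundant member, had 413 and 437 TPM with CS1, against 391 and 375 TPM with PBS (0.15 ± 0.04, adjusted p = 0.0122), and its call was lost after rescaling by a trimmed mean, without the variance trend, without PBS replicate 2 and without CS1 replicate 2 (adjusted p between 0.0554 and 0.0782).
The large core proteins did not pass the test. Uqcrc1 had 193.9 and 193.9 TPM with CS1, against 191 and 193.9 TPM with PBS (0.01, 95% interval -0.045 to 0.070), and it was called higher under quantile normalization (0.12, adjusted p = 0.00484). Uqcrc2 had 119 and 119 TPM with CS1, against 126 and 122 TPM with PBS (-0.06, 95% interval -0.13 to 0.015).

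Complex IV, cytochrome c oxidase, had 6 of 14 tested members higher and none lower under limma and each of its alternatives (also none at an unadjusted p under 0.05), with a median log2 fold change of 0.11, which was 0.049 without PBS replicate 2 and 0.17 with quantile normalization. With 42.9% of its tested members called higher, it stood closer to the background of 35.3% than complexes I, III and V did. Cox6c, a small accessory subunit, had 369 and 365 TPM with CS1, against 280.3 and 290.3 TPM with PBS (0.36 ± 0.03, adjusted p = 9.22e-05). Cox4i1, the subunit that binds ATP as a regulator and the most abundant member of the whole set, had 759 and 769.8 TPM with CS1, against 654 and 642 TPM with PBS (0.24 ± 0.02, adjusted p = 0.000205). Both genes were clearly apart between the groups, and their exons overlap Vps13b by 250 bases and Emc8 by 154 bases.
Several abundant subunits were level. Cox6a1 had 439.6 and 432 TPM with CS1, against 445 and 433 TPM with PBS (-0.01, 95% interval -0.070 to 0.048). Cox6b1 had 452 and 442 TPM with CS1, against 459.9 and 434 TPM with PBS (0.00, 95% interval -0.079 to 0.083). Cox8a had 307 and 314 TPM with CS1, against 306 and 321 TPM with PBS (-0.01, 95% interval -0.090 to 0.061). Under quantile normalization, Cox6a1, Cox6b1 and Cox8a were called higher (0.14, 0.15 and 0.11), and the complex had 11 members higher.

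Isoforms that are used in particular tissues were low. Cox4i2, an isoform known from lung, had 1.6 and 2.05 TPM with CS1 and 2.31 and 0.91 TPM with PBS, which is 0.142% to 0.352% of the Cox4i total over the 4 libraries. The muscle isoforms Cox6a2 and Cox8b did not pass the filter. Cox6a2 reached at most 0.60 TPM with CS1 and 1.38 TPM with PBS, and Cox8b at most 0.77 TPM with CS1 and 1.18 TPM with PBS. Cox7a1, another muscle isoform, had 3.79 and 3.19 TPM with CS1 and 3.04 and 3.11 TPM with PBS (adjusted p = 0.348). Cox7b2 and Cox8c, known from testis, were listed at 0.01 in all 4 libraries. The exception among such isoforms was Cox6b2 (chr7:4751792-4753094), also known from testis, which had 23.5 and 25.9 TPM with CS1, against 11.0 and 14.0 TPM with PBS (0.94 ± 0.12, adjusted p = 0.00088), the largest log2 fold change of the 80 tested members on this scale. With a pseudocount of 0.1, without CS1 replicate 2 and without PBS replicate 1, that of Atp5s was larger. The ratio of mean TPM, CS1 over PBS, was also larger for Atp5s (2.12) than for Cox6b2 (1.98). Cox6b2 made up 4.95% and 5.52% of the Cox6b transcripts with CS1 and 2.33% and 3.13% with PBS. Within the Cox7a family, Cox7a2 rose (188.5 and 193 TPM with CS1, against 155 and 167 TPM with PBS, 0.25 ± 0.04, adjusted p = 0.00255), as did Cox7a2l, a factor for respiratory supercomplexes (417 and 410 TPM with CS1, against 379.98 and 364 TPM with PBS, 0.15 ± 0.03, adjusted p = 0.00389). Their shares of the family overlapped between the groups: Cox7a2l made up 68.4% and 67.7% with CS1 and 70.7% and 68.2% with PBS.

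Complex V, the ATP synthase, had 13 of 17 members higher and 1 lower, with a median log2 fold change of 0.18, which was 0.31 with quantile normalization. Its parts were unlike in count. Of the 5 genes of the F1 head and central stalk, where ATP is made, 2 were higher and none lower (limma, also at an unadjusted p under 0.05; median 0.01), while 9 of the 10 genes of the membrane part and peripheral stalk were higher and 1 lower (median 0.18). Of all tested features, 35.3% were called higher and 31.6% lower, so the 40.0% of F1 genes called higher lay near the background. The split into parts was made after the values had been seen and was not tested. Atp5s and Atp5sl, which the name rule takes in but which are better known as Dmac2l and Dmac2 and are not subunits of the enzyme, were both called higher (Atp5sl not on leaving out PBS replicate 2 or CS1 replicate 1), and without them 11 of 15 members were higher and 1 lower.

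In the F1 head, Atp5b, the catalytic beta subunit and the most abundant gene of the complex, had 665 and 647 TPM with CS1, against 680.5 and 678 TPM with PBS (-0.05, 95% interval -0.10 to 0.0028, adjusted p = 0.0826), and it was called lower after rescaling by a trimmed mean (-0.09, adjusted p = 0.0108). Atp5a1, the alpha subunit, had 498 and 489.6 TPM with CS1, against 490.2 and 488 TPM with PBS (0.01, 95% interval -0.037 to 0.064). Atp5c1, the gamma subunit of the central stalk, was not called (-0.02, adjusted p = 0.368), and under quantile normalization it was called higher (0.10, adjusted p = 0.00701), as was Atp5a1 (0.16, adjusted p = 0.000774). Of the small F1 subunits, Atp5d (delta) rose by 0.21 and Atp5e (epsilon) by 0.18 on the log2 scale. The call of Atp5e was lost without the variance trend (adjusted p = 0.0545) and on leaving out PBS replicate 1 (adjusted p = 0.0633) or CS1 replicate 1 (adjusted p = 0.0584).

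In the membrane part, the c-ring is built from 1 mature protein encoded by Atp5g1, Atp5g2 and Atp5g3, and all 3 genes rose. Atp5g2 (chr15:102662868-102671047) had 434 and 431 TPM with CS1, against 324 and 326 TPM with PBS (0.41 ± 0.02, adjusted p = 2.56e-05, the smallest of all members). Atp5g1 had 161 and 162 TPM with CS1, against 133 and 127 TPM with PBS (0.31 ± 0.03, adjusted p = 0.000371), and Atp5g3 had 306 and 306 TPM with CS1, against 268 and 271 TPM with PBS (0.18 ± 0.02, adjusted p = 0.00065). The family summed to 900.3 and 898 TPM with CS1 and to 725 and 724 TPM with PBS. Within the family, Atp5g2 took a larger share with CS1 (48.2% and 48.0%, against 44.8% and 45.1% with PBS) and Atp5g3 a smaller share (33.9% and 34.0% with CS1, against 36.9% and 37.4% with PBS), while the shares of Atp5g1 overlapped. Of the 50-base stretches of Atp5g2, 38.3% are shared with other annotated transcripts, against 11.1% for Atp5g1 and none for Atp5g3.

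Atp5k, the small membrane subunit e of the dimer interface, had 307 and 300.2 TPM with CS1, against 240.1 and 249 TPM with PBS (0.31 ± 0.03, adjusted p = 0.00022). Atp5o, the peripheral stalk protein that confers oligomycin sensitivity, had 284 and 283 TPM with CS1, against 236 and 231 TPM with PBS (0.28 ± 0.02, adjusted p = 0.000158), and its exons overlap Donson by 287 bases. For Atp5o, 45.6% of the 50-base stretches are shared with other annotated transcripts. Atp5f1, subunit b of the same stalk, was lower, with 227 and 217 TPM with CS1, against 249 and 239 TPM with PBS (-0.14 ± 0.03, adjusted p = 0.0143). The groups were apart for all 3 genes, so that subunits of the same stalk differed in direction. The call of Atp5f1 was lost on leaving out PBS replicate 1 (adjusted p = 0.0864) or CS1 replicate 2 (adjusted p = 0.0785), without the variance trend (adjusted p = 0.0733) and under quantile normalization (adjusted p = 0.879), and 37.6% of its 50-base stretches are shared with other annotated transcripts.

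**Figure D3:**
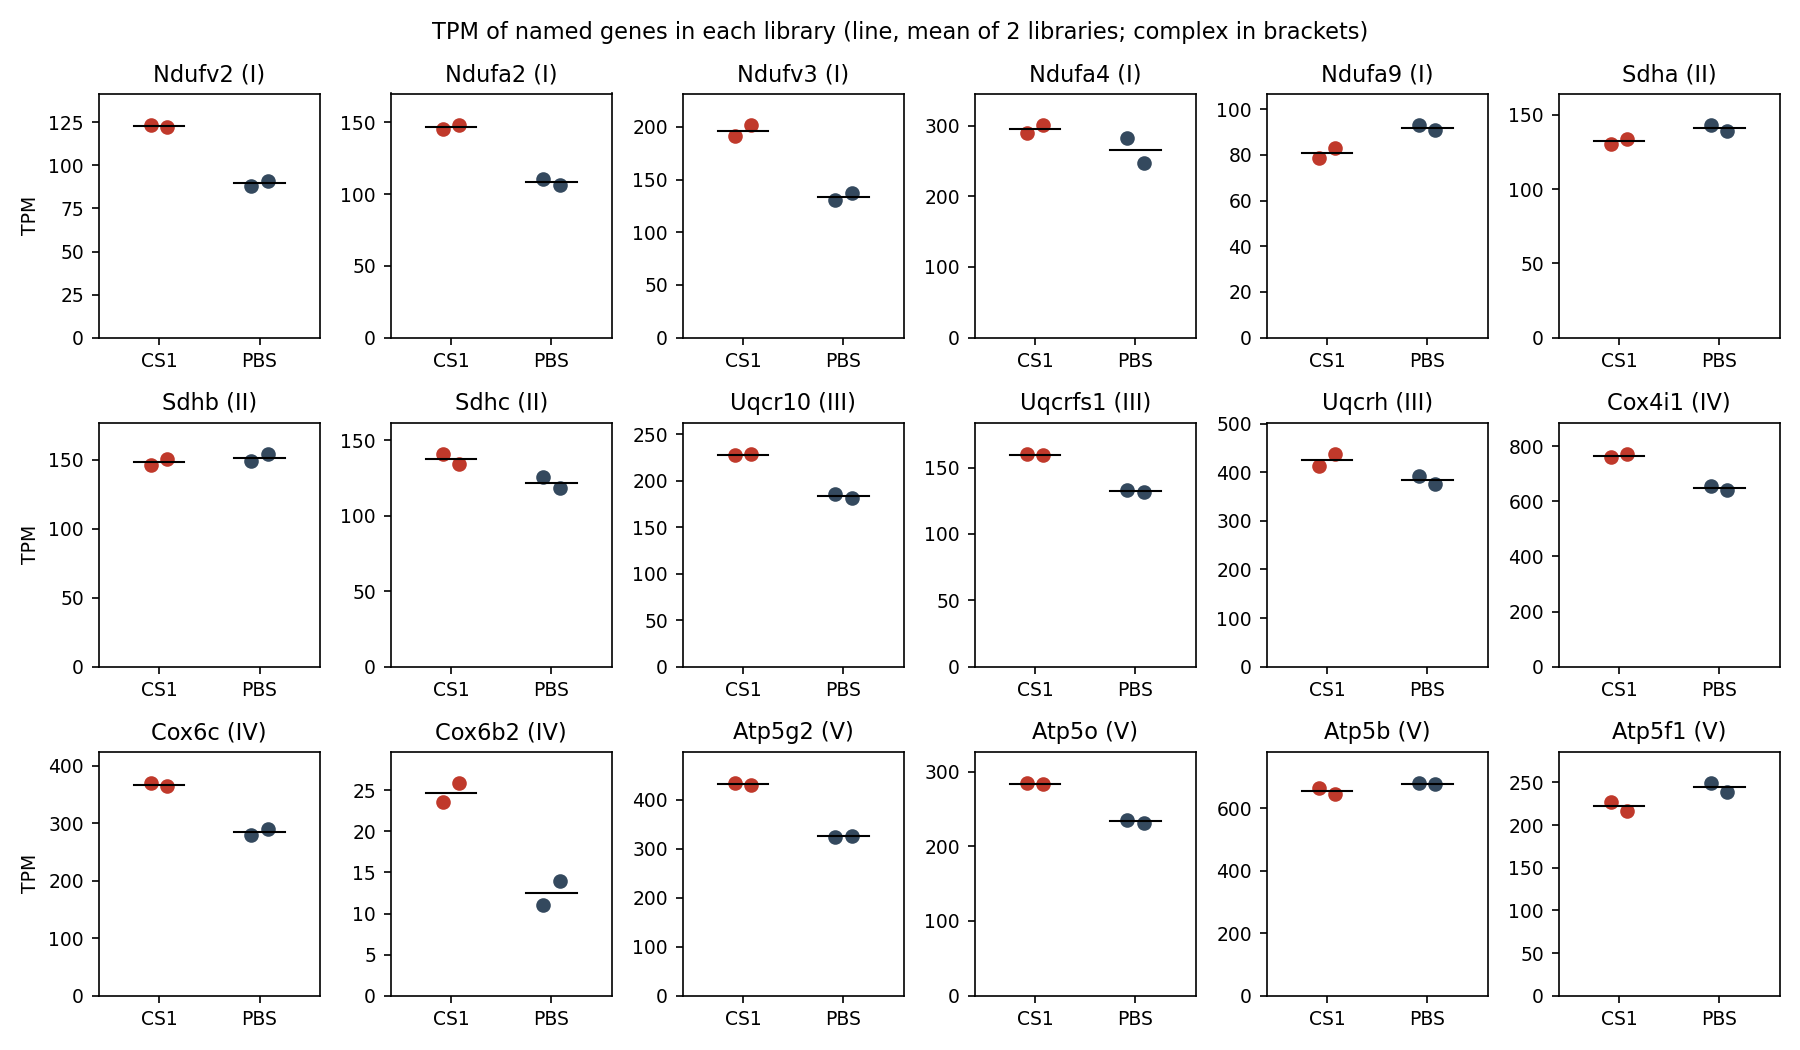
TPM (y axis, from 0) of 18 members in each library, CS1 left of PBS, with the mean as a line and the complex in brackets. In Ndufv2, Ndufv3, Ndufa2, Uqcr10, Cox6c and Atp5g2 the CS1 libraries lie well above the PBS libraries, and in Ndufa9, Sdha, Atp5b and Atp5f1 they lie below them.

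Genes around the chain that the name rule does not take were mixed. Of 10 tested subunits and carriers outside it, 5 were higher and 3 lower, beside 35.3% and 31.6% of all tested features. The genes called lower were Cycs, Etfa and Gpd2. Etfb, which with Etfa forms the flavoprotein that passes electrons from fatty acid oxidation to ubiquinone, had 259 and 268 TPM with CS1, against 144 and 145 TPM with PBS (0.86 ± 0.03, adjusted p = 6e-06), while its partner Etfa was lower (-0.14, adjusted p = 0.00761). Cycs, cytochrome c itself, had 71.4 and 69.1 TPM with CS1, against 108 and 107 TPM with PBS (-0.60 ± 0.03, adjusted p = 2.91e-05). The carrier between complexes III and IV was lower where most complex III subunits, and cytochrome c1 (Cyc1, 149 and 143 TPM with CS1, against 125 and 119 TPM with PBS, 0.25 ± 0.04, adjusted p = 0.00169), were higher. Atpif1, the inhibitor of ATP hydrolysis by complex V, had 105 and 106 TPM with CS1, against 60.6 and 65.5 TPM with PBS (0.74 ± 0.04, adjusted p = 4.96e-05). No feature name in the table begins with mt-, and mitochondrially encoded subunits were not analysed here.

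Assembly factors were mixed too, beside 35.3% of all tested features called higher and 31.6% called lower. For complex I, 7 of 14 were higher and 2 lower, and the smallest p-values were those of Ecsit (39.7 and 37.5 TPM with CS1, against 26.4 and 25.9 TPM with PBS, 0.54 ± 0.05, adjusted p = 0.000223) and Foxred1 (38.9 and 40.0 TPM with CS1, against 30.8 and 29.8 TPM with PBS, 0.37 ± 0.04, adjusted p = 0.0007). For complex IV, 2 of 21 tested factors were higher and 8 lower, shares of 9.52% and 38.1% against 35.3% and 31.6% of all features. Coa4 had 29.0 and 29.3 TPM with CS1, against 39.1 and 40.1 TPM with PBS (-0.43 ± 0.04, adjusted p = 0.000325), and Coa5 had 39.9 and 38.2 TPM with CS1, against 54.6 and 60.2 TPM with PBS (-0.54 ± 0.06, adjusted p = 0.00044). Coa3, Cox17, Surf1, Sco2, Lrpprc and Taco1 were the other factors called lower. Complex II had 2 of 4 factors higher and 1 lower, with Sdhaf2, which attaches flavin to Sdha, at -0.36 ± 0.05 (adjusted p = 0.00172) and Sdhaf1, which helps to mature Sdhb, at 0.46 ± 0.07 (adjusted p = 0.00242). Complex III had 2 of 6 higher (Uqcc3 at 0.31 ± 0.04, adjusted p = 0.000899, and Ttc19 at 0.45 ± 0.07, adjusted p = 0.00194), and complex V had Atpaf2 higher at 0.20 ± 0.05 (adjusted p = 0.0131) and Tmem70 lower at -0.20 ± 0.06 (adjusted p = 0.0292), of 3.

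Of 11 tested regulators of these genes, 2 were higher and 4 lower, shares of 18.2% and 36.4% against 35.3% and 31.6% of all features. Esrra, a nuclear receptor known to drive respiratory genes, had 34.97 and 34.87 TPM with CS1, against 50.2 and 50.7 TPM with PBS (-0.52 ± 0.04, adjusted p = 9.48e-05). Yy1 had 77.3 and 78.2 TPM with CS1, against 89.2 and 92.7 TPM with PBS (-0.22 ± 0.03, adjusted p = 0.00171). Gabpa, the DNA-binding subunit of GABP, was lower as well (-0.28, adjusted p = 0.00401), and its partner Gabpb1 was higher (0.18, adjusted p = 0.0400). Nrf1 had 34.9 and 32.9 TPM with CS1, against 37.3 and 36.4 TPM with PBS, and was not called (-0.12, adjusted p = 0.0708).

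**Figure D4:**
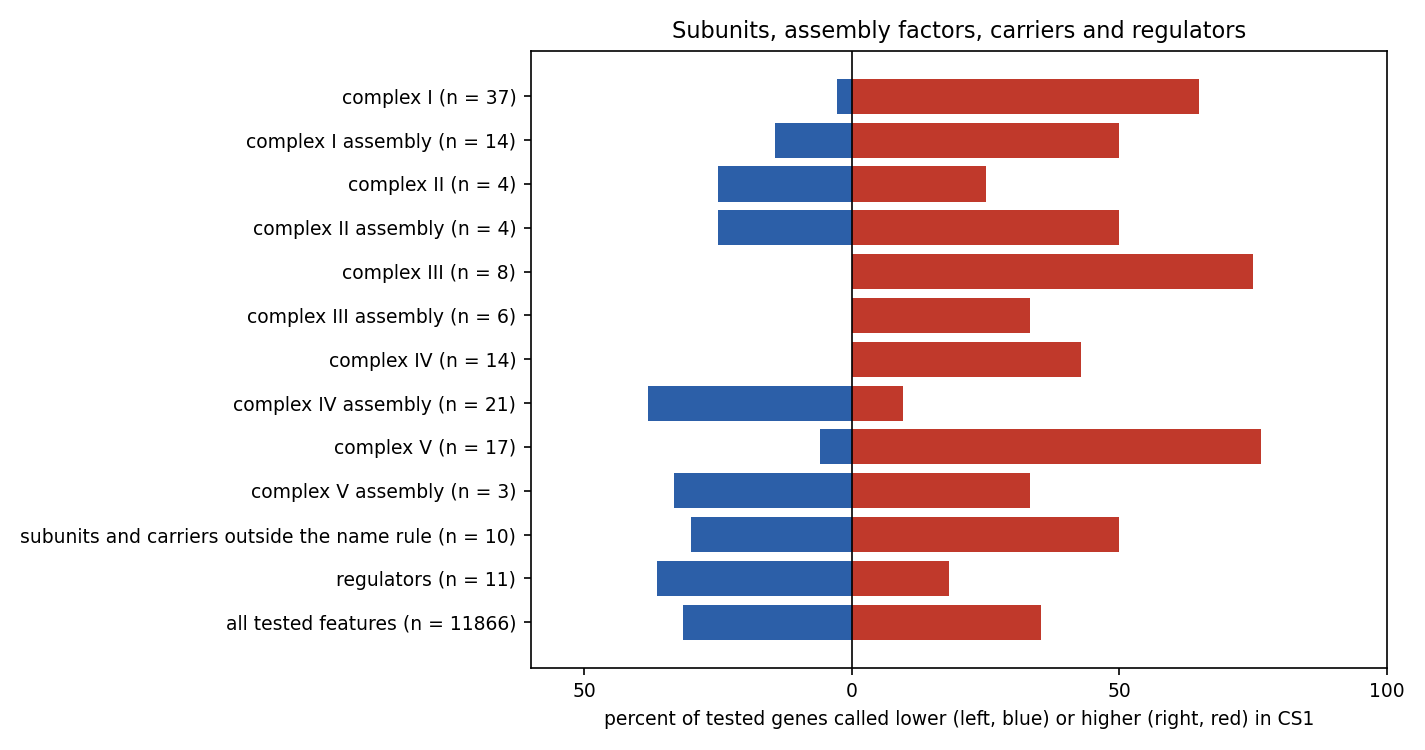
Percent of tested genes called lower (blue, left of 0) or higher (red, right of 0) with CS1, for the subunits of each complex, their assembly factors, subunits and carriers outside the name rule, regulators and all 11866 tested features (x axis, percent; n in brackets). Complex I reaches 64.9% higher and 2.70% lower, the complex IV assembly factors 9.52% higher and 38.1% lower, and all tested features 35.3% higher and 31.6% lower.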

How the data were processed

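The authors' deposited table holds 1 value per gene and library. STAR, RSEM and mm10 appear in the submitters' processing notes without versions or roles, and for the annotation the sources used here give nothing. The deposited values were taken as TPM because the columns sum to 977973 to 986345, hold decimals and come with RSEM; neither header nor labels state the unit. TPM keeps no depth, and as a share it moves with other abundant transcripts.

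Values were transformed to log2(TPM + 1), which understates changes of low genes. Features reaching 1 TPM in 2 or more of the 4 libraries (11866) were fitted with limma 3.58.1 (R 4.3.3; variance trend, two-sided, Benjamini-Hochberg over all tested). Log2 fold changes, SEs and adjusted p-values are from this fit unless another setting is named. The fit was also run on simulated data in which few features changed. That run cannot show how it performs where 67.0% of tested features are called.

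Members and lists were chosen with earlier results of these data known. For each complex the text names the 3 members with the smallest p, the most abundant, each called lower and the isoform groups, and of every other list the 2 with the smallest p; others were chosen after their values were seen. The values of 1 member are not reported here by name, though it is in the counts and sums. Exons, coordinates and shared 50-base stretches are from GENCODE M21 on GRCm38, promoters from RefSeq GRCm38.p6.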

Additional observations from a re-analysis of the deposited data

How the results depend on the processing

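With 2 libraries a group and unknown depth, a gene's test borrows its spread from other genes. The counts over all features moved by less than 1.5 times under the alternatives run, from 3429 to 4194 called higher and from 3191 to 4079 called lower. Members called higher were 50, and 45 to 65 under the alternatives (48 after rescaling by a trimmed mean of M values, 65 with quantile normalization, 45 without the variance trend, 46 to 51 on leaving out a library). Members called lower were 3, and 5 after the rescaling, 1 with quantile normalization and 1 without the trend. The median over the members was 0.15 after the rescaling, 0.29 with quantile normalization and 0.17 to 0.21 on leaving out a library, against 0.19. By complex, complex I lower counts were 1 to 2 on leaving out a library. Complex II had 2 higher with quantile normalization, 0 without the trend and 0 to 1 on leaving out a library, and 0 lower without the filter on low values, with quantile normalization, without the trend, with the replicate block and on leaving out any library. After the rescaling, complex III had 1 lower and complex V 2 lower. With quantile normalization, complex IV had 11 higher and complex V 0 lower, and complex V had 0 lower without the trend and 0 to 1 on leaving out a library. Signs turned for the complex II median (0.014; -0.025 after the rescaling and -0.012 to 0.040 on leaving out a library) and log2 ratio of sums (0.024; -0.015 after the rescaling), and, among single genes with a call in either fit, with quantile normalization for Atp5c1 (0.10), Cox6a1 (0.14), Cox8a (0.11) and Sdha (0.030, adjusted p = 0.410). Some members that no fit called, such as Ndufa8, Ndufs1 and Cox5a, also lay on the other side of 0 with quantile normalization. Features at a mean of 50 TPM or more had a median of -0.07, and 0.0062 with quantile normalization. The cause of these changes was not tested. The groups share replicate numbers, but the labels do not say that a number pairs libraries, and over 11866 features the deviations of same-numbered libraries from their group means correlated at 0.022. With the replicate block, 54 members were higher and 2 lower, and 4110 and 3640 of all features. Tmem70 and Atpaf2 lost their calls on leaving out some single libraries, and Tmem70 also without the filter.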

Other observations

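The respiratory chain genes are abundant and mostly short, and both properties varied with the direction of change across all tested features. Coding length here is the longest among a gene's annotated protein-coding transcripts, and which transcript was expressed was not examined. Among features with a coding length under 600 bases, 43.6% of 1461 were called higher and 24.3% lower (median log2 fold change 0.13), among those from 600 to under 1000 bases 37.8% were higher and 31.0% lower (median 0.07), and among those of 1000 bases or more 32.6% of 7255 were higher and 35.2% lower (median 0.00). The members did not follow this order throughout, since their middle class was highest: 39 of 58 under 600 bases were higher and none lower (limma; median 0.19), 7 of 10 from 600 to under 1000 bases were higher and 1 lower (median 0.28), and 3 of 11 of 1000 bases or more were higher and 2 lower (median 0.01). The long members that were not called or were lower include Sdha (1992 bases), Atp5a1 (1659 bases), Atp5b (1587 bases) and Ndufa9 (1131 bases), and Ndufv3 (1404 bases) and Ndufv1 (1392 bases) were higher. Level went the other way: at a mean of 50 TPM or more, 32.5% of 3589 features were higher and 47.6% lower (median -0.07), against 47 of 72 members higher and 3 lower (median 0.19). In features both under 600 bases and at 50 TPM or more, 45.2% of 644 were higher and 32.8% lower, against 37 of 51 members higher and none lower. These classes were chosen after the data were seen, and the part of length in the members' change was not tested.

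Of the 84 members, 24 share at least 10% of the 50-base stretches of their transcripts with another annotated gene, and exons of 17 overlap another tested feature. Among the 56 tested members below that share 33 were higher and 2 lower (median 0.19), and among the 63 tested members with no exon overlap 39 were higher and 2 lower (median 0.18).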
